A study of Cucumis sativus var. sativus with 11 samples.

Results

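A set of 4 genes of the cucumber sex determination pathway was followed through 11 RNA-seq libraries of single ovaries, out of 23248 genes in the count table. The genes are CsACS1 (Csa6G496450), CsACS2 (Csa1G580750) and CsACS11 (Csa2G353460), which encode synthases of the ethylene precursor ACC, and CsWIP1 (Csa4G290830), which encodes a zinc finger transcription factor. They were chosen by identifier, whatever their levels. All ovaries came from Elem Female, a line of Cucumis sativus that bears female flowers and sets no fruit without pollination. All plants were grown to maturity in a net-house, and tissue was taken early in the morning. Anthesis ovaries were sampled when the flower had just opened (n = 3). The other ovaries were taken 1 day later and were pollinated with a pollinator genotype (n = 3), left unpollinated (n = 3), or pollinated on plants that already carried older fruits (n = 2). The last group is called inhibited here, after the study's own term.

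Ethylene is made from S-adenosylmethionine by way of ACC, and ACC synthase usually sets the rate of that path. In cucumber, ethylene favours female flowers. CsACS11 is the gene of the androecy locus, and plants that lack its activity bear only male flowers. CsACS2 is the gene of the monoecy locus and acts in young carpels to stop stamen growth. CsWIP1 is the gene of the gynoecy locus and represses carpel development, and CsACS11 acts to keep it low in buds that become female. CsACS1 is tied to the Female locus, where an extra copy called CsACS1G is found in many gynoecious lines. The coding parts of the copies are nearly the same, so reads of both could share the single CsACS1 row or be set aside as not unique. Which locus makes Elem Female gynoecious is not given in the sources used here. These genes are best known from flower buds, well before anthesis.

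The libraries held 18158218 to 26456643 reads assigned to genes. Levels are given as CPM, the reads of a gene relative to all gene reads of its library, on TMM-adjusted library sizes, with the read numbers beside them. Reads assigned to no single gene made up 10.8 to 13.3% in 7 libraries and 16.8 to 24.8% in 4, which were pollinated replicates 1 and 3, unpollinated replicate 3 and inhibited replicate 2. The labels give 2 forms of the second index sequence. The first form was carried by all anthesis and pollinated libraries and unpollinated replicate 1, and the second by the other 4 libraries, both inhibited ones among them. The lane number was 2 for anthesis replicate 3 and 3 for every other library. No label says that each ovary grew on its own plant, so the spread behind the p-values is that between single ovaries. The tissue was not checked against carpel or ovule markers, because 0 identifiers of the table matched the reference gene list. For the same reason no other gene of the ethylene pathway is named.

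All 4 genes had few reads in ovaries around anthesis. CsACS2 had 196 reads over the 11 libraries together, CsACS11 174, CsWIP1 107 and CsACS1 37. CsACS2, CsACS11 and CsWIP1 had reads in all 11 libraries and passed the filter on low counts. CsACS1 was at 0 reads in 4 libraries and did not pass, so it has no test in the fit that gives the other values. None of the other 3 genes passed the test in any of the 6 comparisons. In bulk tissue, fewer cells that express a gene and less RNA per cell cannot be told apart. Of 18 tests, 0 passed an adjusted p of 0.05 (edgeR's quasi-likelihood test with Benjamini-Hochberg adjustment over 18679 genes). At an unadjusted p under 0.05 there were 4 of the 18, where 34.4% of all tests in these comparisons and 17.7% of those on genes with a mean of 5 to 25 reads stood under it. DESeq2 called 2 of the 18, both for CsACS2, against 23.3% of all tests and 8.85% of those on genes with 5 to 25 reads. A p that misses the threshold does not show that the groups were alike, and the intervals below give the differences these libraries allow.

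Most genes with so few reads were not called either. Over all genes tested, 30.3% were called between pollinated and unpollinated ovaries, but 11.4% of the 1507 tested genes with a mean of 5 to 25 reads per library. CsACS2, CsACS11 and CsWIP1 lie in that range, at means of 17.8, 15.8 and 9.73 reads. The called share over all genes was 16.4% for pollinated against anthesis, 35.7% for unpollinated against anthesis and 11.3% for inhibited against pollinated ovaries. It was 19.6% for inhibited against unpollinated ovaries and 7.37% for inhibited against anthesis. Among the genes with 5 to 25 reads these shares were 9.29, 10.1, 6.57, 6.17 and 4.78%. No call among 3 such genes is thus close to the background.

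**Figure D1:**
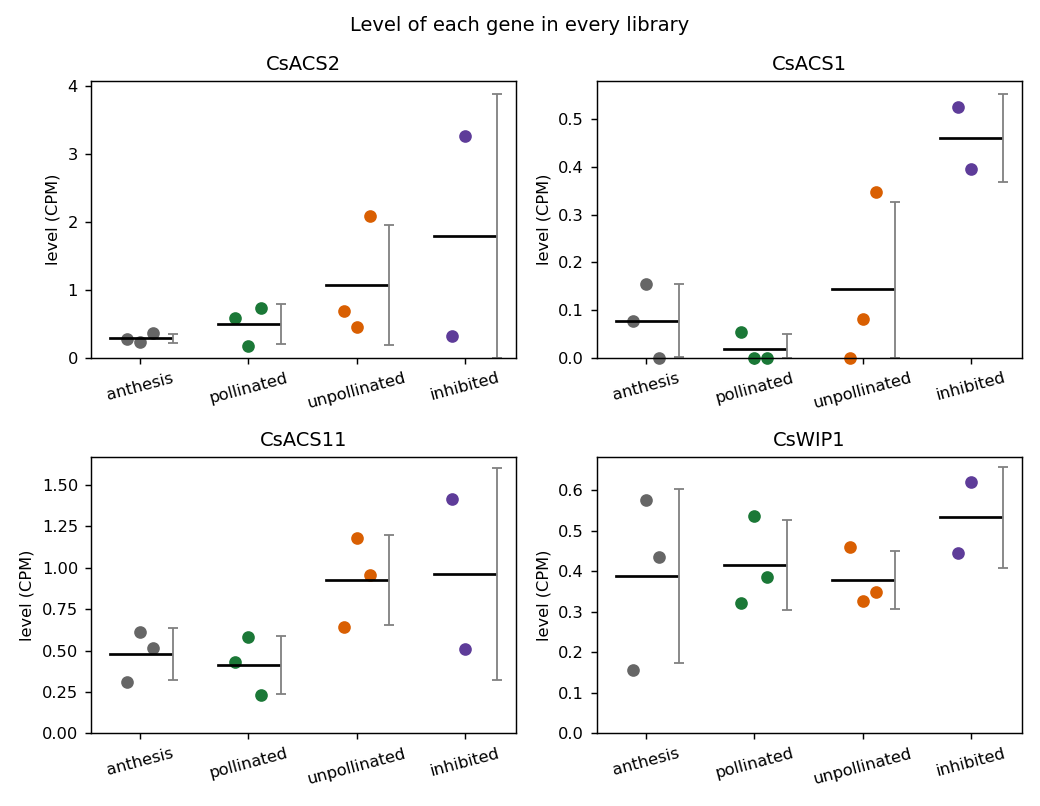
Level of CsACS2, CsACS1, CsACS11 and CsWIP1 in CPM (vertical axes, which differ in scale) by ovary group. Points are libraries, black lines group means and grey bars 1 SD, ended at 0 where they would pass it. CsACS1 was highest in both inhibited libraries (0.526 and 0.395 CPM), CsACS2 in inhibited replicate 2 (3.27 CPM) and unpollinated replicate 3 (2.09 CPM).

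CsACS1 gave 30 of its 37 reads in inhibited and unpollinated ovaries. The inhibited libraries had 13 and 7 reads, at 0.526 and 0.395 CPM. Unpollinated replicates 1 to 3 had 0, 2 and 8 reads, at 0, 0.0814 and 0.348 CPM. Both inhibited libraries lay above every other library in CPM of this gene, while the unpollinated ones spanned the whole remaining range. The gap to unpollinated ovaries rests on the scaling by library size, since inhibited replicate 2 had 7 reads and unpollinated replicate 3 had 8. Anthesis replicates 1 to 3 had 2, 4 and 0 reads (0.0775, 0.153 and 0 CPM), and pollinated replicates 1 to 3 had 1, 0 and 0 (0.0537, 0 and 0 CPM). Pollinated ovaries thus held 1 read in all, and 0 reads in a library allow a level of up to 0.116 to 0.138 CPM in the 4 libraries concerned (3 reads). These floors and the intervals of read ratios cover counting error only. The ratios sum the reads of all ovaries in a group, so their intervals leave out the spread between ovaries. The labels give no molecular identifiers.

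From 20 reads in inhibited against 1 in pollinated ovaries, the ratio of CsACS1 was 32.4, with an exact conditional 95% interval of 5.18 to 1343. Set against unpollinated ovaries the ratio was 3.27 (1.46 to 7.82), and against anthesis ovaries it was 6.06 (2.35 to 18.4). Within groups the chi-square statistic of CsACS1 was 2.48 per degree of freedom. Counting noise alone would give 1, so these intervals are too narrow. Pollinated ovaries stood at 0.101 of the unpollinated level (0.00232 to 0.709) and at 0.187 of the anthesis level (0.00407 to 1.54). Single libraries moved these ratios: on the log2 scale, pollinated against unpollinated went from -3.31 to -1.57 without unpollinated replicate 3. Without anthesis replicate 2, pollinated against anthesis went from -2.42 to -1.43 and inhibited against anthesis from 2.60 to 3.59. Group means ran from 0.0179 ± 0.0310 CPM in pollinated (SD, n = 3) through 0.0770 ± 0.0767 CPM in anthesis (n = 3) and 0.143 ± 0.182 CPM in unpollinated (n = 3) to 0.460 ± 0.0921 CPM in inhibited ovaries (n = 2), and the 3 lower groups overlapped one another. Of the 24 pairs of groups over the 4 genes, 6 did not overlap, and 3 of these were the inhibited ovaries against each other group for CsACS1. The count of 6 takes gaps in either direction. Over all genes tested, each single direction held 18.7 to 25.9% of genes, depending on the comparison. For pollinated against anthesis, the first group was higher in 18.7% of genes and lower in 19.5%. For unpollinated against anthesis these shares were 25.4 and 25.9%. The background for a gap in either direction is the sum of both shares of a comparison, and 6 of 24 lies below it. Such a gap, with inhibited ovaries higher, was seen in 19.5% of the 21918 genes with at least 1 read against pollinated, 21.8% against unpollinated and 20.2% against anthesis ovaries.

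In an edgeR fit with no filter on low counts, CsACS1 was called between inhibited and pollinated ovaries only (log2 fold change 4.55 ± 1.35 SE, adjusted p = 0.0442), in a comparison where that fit called 9.7% of genes. Its adjusted p in the other comparisons was 0.171 for pollinated against unpollinated (25.3% of genes called), 0.438 for pollinated against anthesis (14.1%) and 0.610 for unpollinated against anthesis (29.8%). It was 0.292 for inhibited against unpollinated (16.4%) and 0.157 for inhibited against anthesis (6.97%). The 95% intervals of this fit hold the spread between ovaries. They were 0.743 to 13.3-fold for inhibited against unpollinated and 1.22 to 26.3-fold for inhibited against anthesis. The adjusted p of inhibited against pollinated ovaries ran from 0.0261 to 0.956 over 14 further settings without the filter, and 10 of them ended the call. It was 0.0506 with DESeq2, 0.206 without inhibited replicate 1, 0.0770 without inhibited replicate 2, and 0.0606, 0.130 and 0.139 without pollinated replicates 1, 2 and 3. It was 0.0608 without anthesis replicate 1, 0.0553 without unpollinated replicate 2 and 0.0524 when the unassigned share was a covariate. The 3-degree test of any difference among the groups gave an adjusted p of 0.0518 without the filter, where 40% of genes were called. Over the 14 further settings it ran from 0.0242 to 0.401 and was called in 3, at 0.0242 without unpollinated replicate 3, 0.0317 without unpollinated replicate 1 and 0.0448 without anthesis replicate 2. An exact permutation of the group labels over the libraries gave an unadjusted p of 0.0674 (92400 arrangements, between-group sum of squares of log2 CPM).

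The second index moved with CsACS1. The 7 libraries of the first form had 7 reads together and at most 0.153 CPM, while the 4 libraries of the second form had 30 reads and 0.0814 to 0.526 CPM. Within the unpollinated group, the library of the first form had 0 reads and those of the second form 2 and 8. With the index as a term, inhibited against pollinated ovaries had a log2 fold change of -0.81 (edgeR without the filter, adjusted p = 0.956). In that fit 3 other comparisons also changed sign, which were pollinated against unpollinated (from -2.89 to 1.91), inhibited against anthesis (from 2.5 to -2.85) and unpollinated against anthesis (from 0.85 to -3.96), with adjusted p = 0.783, 0.943 and 0.485. All pollinated libraries carry the first form and both inhibited libraries the second, so in that comparison the index and the older fruits cannot be told apart except through the unpollinated libraries. Of these, only unpollinated replicate 1 carries the first form. The index term of every gene thus rests on that library, which had 0 CsACS1 reads. In the fit without the filter, inhibited against unpollinated was 1.11 with the term and 1.11 without that library. Inhibited against unpollinated ovaries can be compared within the second form, where the log2 ratio was 1.16 in place of 1.71. It was 3.45 without unpollinated replicate 3, which held 8 of the 10 unpollinated reads.

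**Figure D2:**
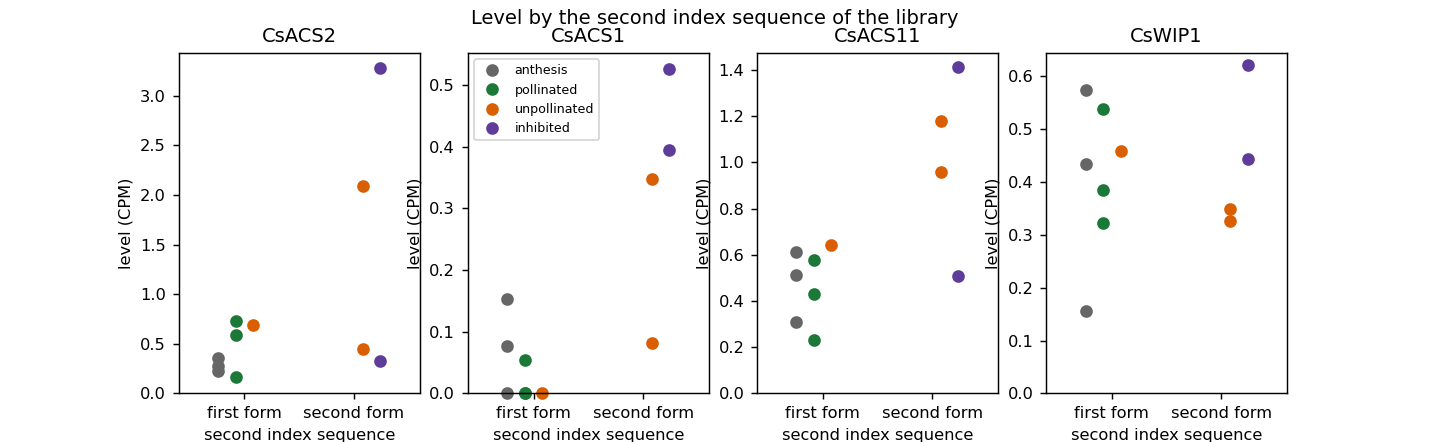
Level in CPM (vertical axes, which differ in scale) of the 4 genes by the form of the second index sequence, coloured by ovary group. Each point is a library. CsACS1 reached at most 0.153 CPM among the 7 libraries of the first form and 0.526 CPM among the 4 of the second.

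CsACS2 had its highest levels in single libraries of the unpollinated and inhibited groups. Inhibited replicates 1 and 2 had 8 and 58 reads, at 0.323 and 3.27 CPM. Unpollinated replicates 1 to 3 had 15, 11 and 48 reads, at 0.688, 0.448 and 2.09 CPM. The pair of inhibited ovaries thus held both a level like that of anthesis and the top level of all libraries. Pollinated replicates 1 to 3 had 11, 4 and 19 reads (0.590, 0.165 and 0.732 CPM). Anthesis ovaries were the most alike, with 7, 6 and 9 reads (0.271, 0.230 and 0.356 CPM).

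Group means of CsACS2 ran in the order anthesis (0.286 ± 0.0642 CPM, SD, n = 3), pollinated (0.496 ± 0.295 CPM, n = 3), unpollinated (1.08 ± 0.887 CPM, n = 3) and inhibited (1.80 ± 2.09 CPM, n = 2), but no neighbours in this order differed beyond their spread. Inhibited ovaries had a log2 fold change of 2.59 ± 0.89 SE against anthesis (edgeR adjusted p = 0.0896, 95% interval 0.66 to 4.52). It was 0.18 without inhibited replicate 2, and 3.48 and called without replicate 1 (adjusted p = 0.0448). Unpollinated ovaries had a log2 fold change of 1.89 ± 0.84 SE against anthesis (edgeR adjusted p = 0.0982, interval 0.07 to 3.72), and 0.97 without unpollinated replicate 3. The latter comparison was called without inhibited replicate 1 (adjusted p = 0.0409) or replicate 2 (adjusted p = 0.0440), neither of which is a member of the groups compared. In the fits that leave out a library, the share of all genes called was not counted. All 3 unpollinated libraries lay above all 3 anthesis libraries, as in 25.4% of genes tested. DESeq2 called both differences, with adjusted p = 0.0285 for inhibited and 0.0471 for unpollinated ovaries. It called 12.8% of all genes and 5.91% of those with 5 to 25 reads in the first comparison, and 37.1% and 9.69% in the second.

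Pollinated ovaries had a log2 fold change of -1.11 ± 0.80 SE against unpollinated ovaries for CsACS2 (edgeR adjusted p = 0.322, interval -2.84 to 0.62), and of -0.19 without unpollinated replicate 3. Against anthesis it was 0.78 ± 0.91 SE (adjusted p = 0.589), and 0.34 without pollinated replicate 3. Inhibited ovaries stood at 1.81 ± 0.85 SE against pollinated (adjusted p = 0.203) and at 0.70 ± 0.81 SE against unpollinated ovaries (adjusted p = 0.590). The last 2 values were -0.61 and -1.71 without inhibited replicate 2, so that library set their sign. The 3-degree test of any difference among the groups gave an adjusted p of 0.0878, and 0.0136 without inhibited replicate 1, where in the fit to all libraries 47.3% of all genes tested and 18.8% of those with 5 to 25 reads were called. An exact permutation of the group labels gave an unadjusted p of 0.325.

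The spread of CsACS2 between ovaries of a group was far above counting noise. Its chi-square statistic within groups was 14.5 per degree of freedom, where 1 would be counting noise alone, and 1.46% of the 1507 genes with 5 to 25 reads had as high a value (their median was 2.45). The level of CsACS2 moved with the share of unassigned reads. Across the 11 libraries, which also differ in group and depth, Pearson's r of log2 CPM with that share was 0.76 and Spearman's rho 0.75. Without the 2 libraries farthest from the median share, inhibited replicate 2 and pollinated replicate 1, r was 0.65. An r at least as high was found for 1.19% of genes tested.

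In each group taken after 1 day, the libraries with a raised unassigned share had higher CsACS2 than the others. They stood at 0.590 and 0.732 against 0.165 CPM in pollinated, 2.09 against 0.688 and 0.448 CPM in unpollinated, and 3.27 against 0.323 CPM in inhibited ovaries. With the share as a covariate, pollinated ovaries were lower than unpollinated ones, with a log2 fold change of -2.36 (edgeR adjusted p = 0.00248), and unpollinated ovaries were higher than anthesis at 1.24 (adjusted p = 0.0318). In the same fit, inhibited against anthesis stood at 0.09 (adjusted p = 0.946). The share of all genes called in that fit was not counted. Without the 4 libraries these log2 fold changes were -1.75, 0.98 and 0.18, and none was called (edgeR adjusted p = 0.218, 0.249 and 0.923). That fit rests on a single pollinated and a single inhibited library, which are assumed to vary like the other groups. By index, CsACS2 had 71 reads and 0.165 to 0.732 CPM in the 7 libraries of the first form, and 125 reads and 0.323 to 3.27 CPM in the 4 of the second. With the index as a term, CsACS2 stood at 1.25 for unpollinated against anthesis (edgeR adjusted p = 0.551) and at 1.72 for inhibited against anthesis (adjusted p = 0.832). That term rests on a single library, unpollinated replicate 1. The part of the index and of the unassigned share in these differences was not tested beyond the fits given here.

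**Figure D3:**
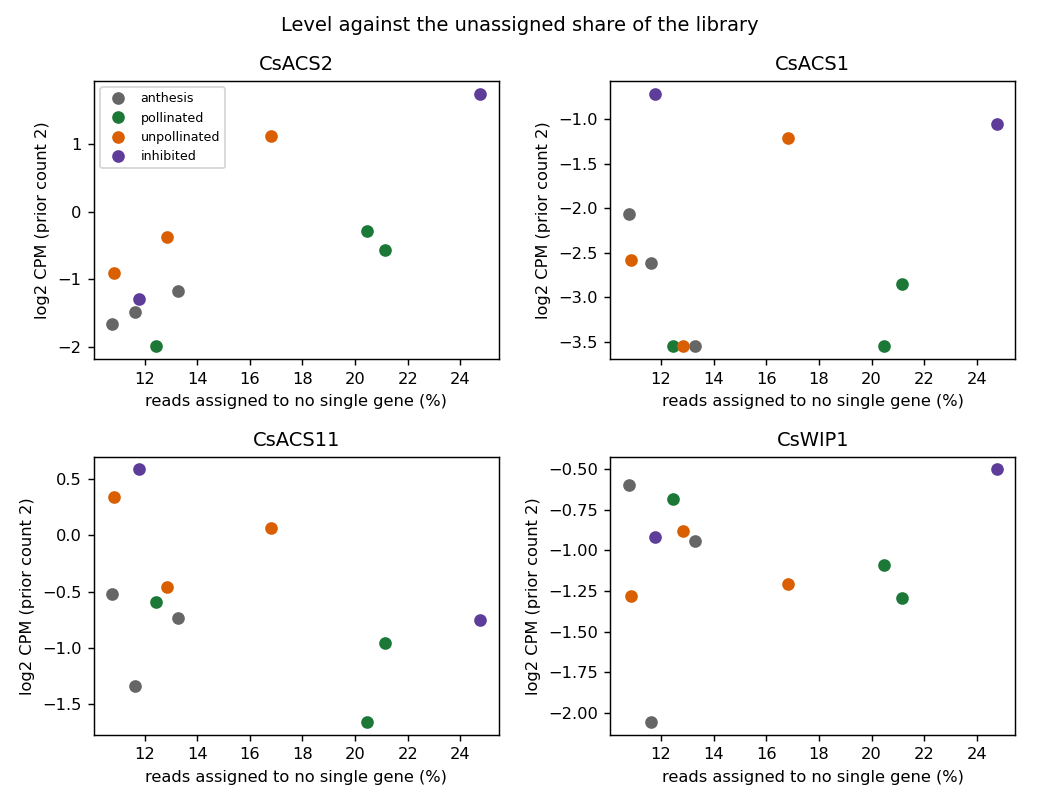
Level as log2 CPM (vertical axes, prior count of 2) of the 4 genes against the percentage of a library's reads assigned to no single gene, coloured by ovary group. Each point is a library. CsACS2 lay higher in libraries with a larger share (Pearson's r 0.76 over 11 libraries), while r was -0.43 for CsACS11.

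CsACS11, like the other 2 synthase genes, had lower means in anthesis and pollinated ovaries than in unpollinated and inhibited ones, and no comparison passed the test. Anthesis replicates 1 to 3 had 8, 16 and 13 reads, at 0.310, 0.613 and 0.514 CPM. Pollinated replicates 1 to 3 had 8, 14 and 6 reads, at 0.429, 0.579 and 0.231 CPM. Those groups overlapped almost fully. Unpollinated replicates 1 to 3 had 14, 29 and 22 reads, at 0.642, 1.18 and 0.958 CPM. Inhibited replicate 1 had 35 reads and the top level of 1.41 CPM, but replicate 2 had 9 reads and 0.508 CPM, within the anthesis range. Every unpollinated library lay above every pollinated and every anthesis library. Both gaps rest on the scaling by library size. Unpollinated replicate 1 had 14 reads, while pollinated replicate 2 also had 14 and anthesis replicate 2 had 16.

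Pollinated ovaries had a log2 fold change of -1.17 ± 0.51 SE against unpollinated ones for CsACS11 (edgeR adjusted p = 0.0995, 95% interval -2.27 to -0.07). Group means were 0.413 ± 0.174 CPM (SD, n = 3) and 0.927 ± 0.270 CPM (SD, n = 3). Such a gap between groups in that direction was seen in 21.5% of genes tested. The adjusted p was 0.292 without pollinated replicate 3 and 0.276 without unpollinated replicate 2. Unpollinated against anthesis ovaries gave 0.95 ± 0.49 SE (adjusted p = 0.151), with a gap seen in 25.4% of genes.

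Group means of CsACS11 ran from pollinated through anthesis (0.479 ± 0.155 CPM, SD, n = 3) and unpollinated to inhibited ovaries (0.961 ± 0.641 CPM, SD, n = 2), and no neighbours in this order differed by the test. Inhibited ovaries had a log2 fold change of 1.25 ± 0.56 SE against pollinated ovaries for CsACS11 (edgeR adjusted p = 0.172, interval 0.05 to 2.46) and of 1.03 ± 0.54 SE against anthesis (adjusted p = 0.242). Without inhibited replicate 1 these were 0.29 and 0.066. Against unpollinated ovaries it was 0.08 ± 0.52 SE (adjusted p = 0.932), and the interval of -1.04 to 1.21 holds differences of over 2-fold in both directions. Pollinated against anthesis ovaries gave -0.22 ± 0.53 SE (adjusted p = 0.808). The 3-degree test among all groups had an adjusted p of 0.116 and was 0.0491 without inhibited replicate 2. The exact permutation gave an unadjusted p of 0.148.

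The second index also moved with CsACS11, which had 79 reads and at most 0.642 CPM in the 7 libraries of the first form, and 95 reads and 0.508 to 1.41 CPM in the 4 of the second. With the index as a term, pollinated against unpollinated ovaries stood at -0.64 (edgeR adjusted p = 0.610) and inhibited against pollinated at 0.52 (adjusted p = 0.844). Here too the term rests on unpollinated replicate 1 alone. The unassigned share had a Pearson's r of -0.43 and a Spearman's rho of -0.46 with the level. Within groups the chi-square statistic was 2.58 per degree of freedom, near the median of 2.45 for genes with 5 to 25 reads.

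CsWIP1, the repressor of carpel development, had the closest group means of the 4 genes, at 0.378 to 0.533 CPM, and no comparison passed the test. Anthesis replicates 1 to 3 had 4, 15 and 11 reads (0.155, 0.575 and 0.435 CPM). Pollinated replicates 1 to 3 had 6, 13 and 10 reads (0.322, 0.538 and 0.385 CPM), and unpollinated replicates 1 to 3 had 10, 8 and 8 (0.459, 0.326 and 0.348 CPM). Inhibited replicates had 11 and 11 reads, at 0.445 and 0.621 CPM. The lowest and the second highest level of all were both at anthesis, and every pair of groups overlapped.

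Group means of CsWIP1 ran from 0.378 ± 0.0714 CPM in unpollinated (SD, n = 3) through 0.388 ± 0.214 CPM in anthesis (n = 3) and 0.415 ± 0.111 CPM in pollinated (n = 3) to 0.533 ± 0.125 CPM in inhibited ovaries (n = 2), and no neighbours in this order differed beyond their spread. The log2 fold changes of the 6 comparisons lay between -0.05 and 0.48, with edgeR adjusted p from 0.604 to 0.955. The highest was inhibited against unpollinated (0.48 ± 0.57 SE, 95% interval -0.76 to 1.72). Pollinated against unpollinated ovaries gave 0.15 ± 0.52 SE, and the interval of -0.98 to 1.28 leaves room for up to a 2.43-fold difference. The 3-degree test gave an adjusted p of 0.866, and the exact permutation an unadjusted p of 0.732. Within groups the chi-square statistic was 1.23 per degree of freedom, and 88.6% of genes with 5 to 25 reads had a value at least as high. CsWIP1 had 69 reads and 0.155 to 0.575 CPM in the libraries of the first index form, and 38 reads and 0.326 to 0.621 CPM in those of the second. Its Pearson's r with the unassigned share was 0.18.

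**Figure D4:**
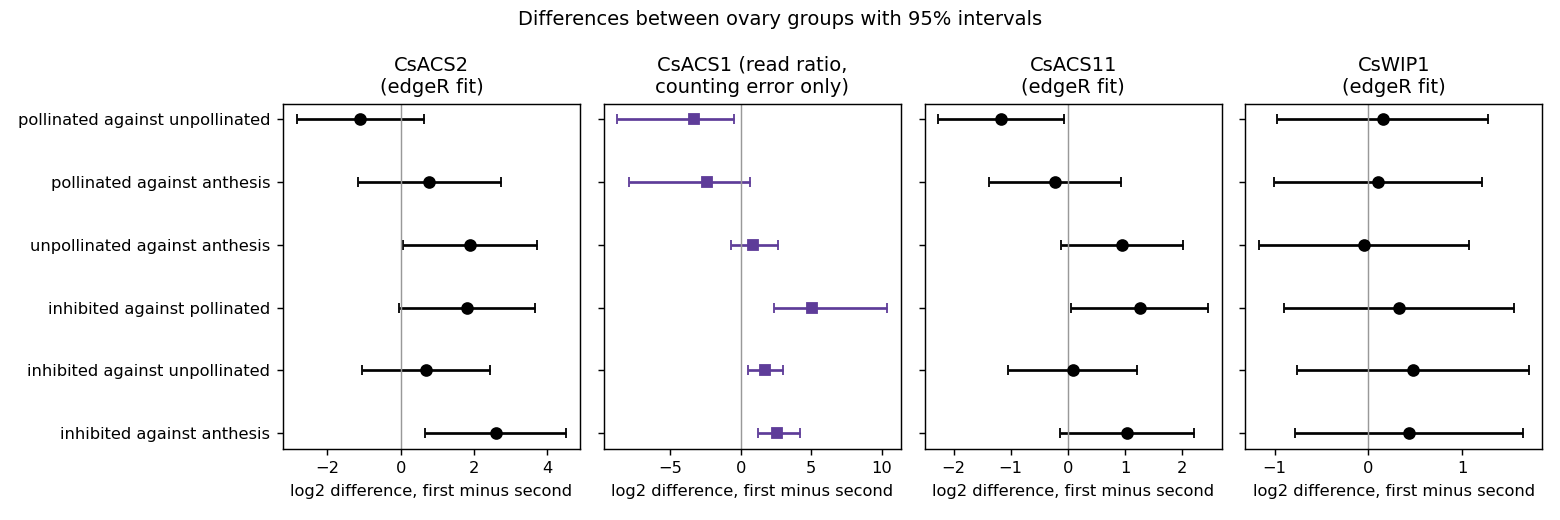
Log2 difference, first group minus second (horizontal axes, which differ in scale), in the 6 comparisons for each gene, with 95% intervals. For CsACS2, CsACS11 and CsWIP1 the points are edgeR fits with intervals that hold the spread between ovaries, and for CsACS1 they are read ratios with intervals of counting error alone. CsWIP1 lies near 0 throughout (-0.05 to 0.48), with intervals about as wide as those of CsACS11.

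The genes did not share 1 pattern across libraries. Over the 11 libraries, which share groups and indices, Pearson's r of log2 CPM was 0.55 between CsACS1 and CsACS11 (Spearman's rho 0.46) and 0.44 between CsACS2 and CsACS1 (rho 0.15). It was 0.00146 between CsACS2 and CsACS11 (rho -0.12). In inhibited ovaries the last pair moved in opposite ways, with CsACS2 low and CsACS11 high in replicate 1 and the reverse in replicate 2. Over genes with at least 20 reads, these 2 libraries also differed more than any other replicate pair. Their chi-square per gene was 51.3, against at most 34.9 elsewhere. CsWIP1 had an r of 0.23 with CsACS11, 0.17 with CsACS2 and 0.13 with CsACS1. In counts this low a weak correlation is no finding.

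The gene most like each was sought among the 17200 other tested genes with a mean of at least 1 CPM, by Pearson's r of log2 CPM over the 11 libraries. For CsACS11 it was Csa7G009210 (r 0.94, rho 0.95), which stood at 1.88, 2.40 and 1.46 CPM in pollinated replicates 1 to 3 and 3.90, 4.56 and 3.61 CPM in unpollinated replicates 1 to 3. It stood at 6.18 and 2.60 CPM in inhibited replicates 1 and 2. Csa7G009210 shared with CsACS11 the highest library (inhibited replicate 1), the lowest (pollinated replicate 3) and the drop in inhibited replicate 2. As it was picked for its r over these same libraries, such likeness follows from the choice.

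For CsACS2 the most alike was Csa3G842620 (r 0.93, rho 0.95), which nearly kept the order of libraries at a far smaller range, from 39.6 CPM in pollinated replicate 2 to 50.6 CPM in inhibited replicate 2. CsACS2 itself ran 19.8-fold from its lowest to its highest library, the same libraries. For CsWIP1 it was Csa7G451910 (r 0.86, rho 0.76), from 1.82 CPM in anthesis replicate 1 to 4.37 CPM in inhibited replicate 1. Only 6 of the 17200 genes reached an r of 0.9 with CsACS2, 5 with CsACS11 and 0 with CsWIP1. What these 3 genes encode is not given in the files.

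**Figure D5:**
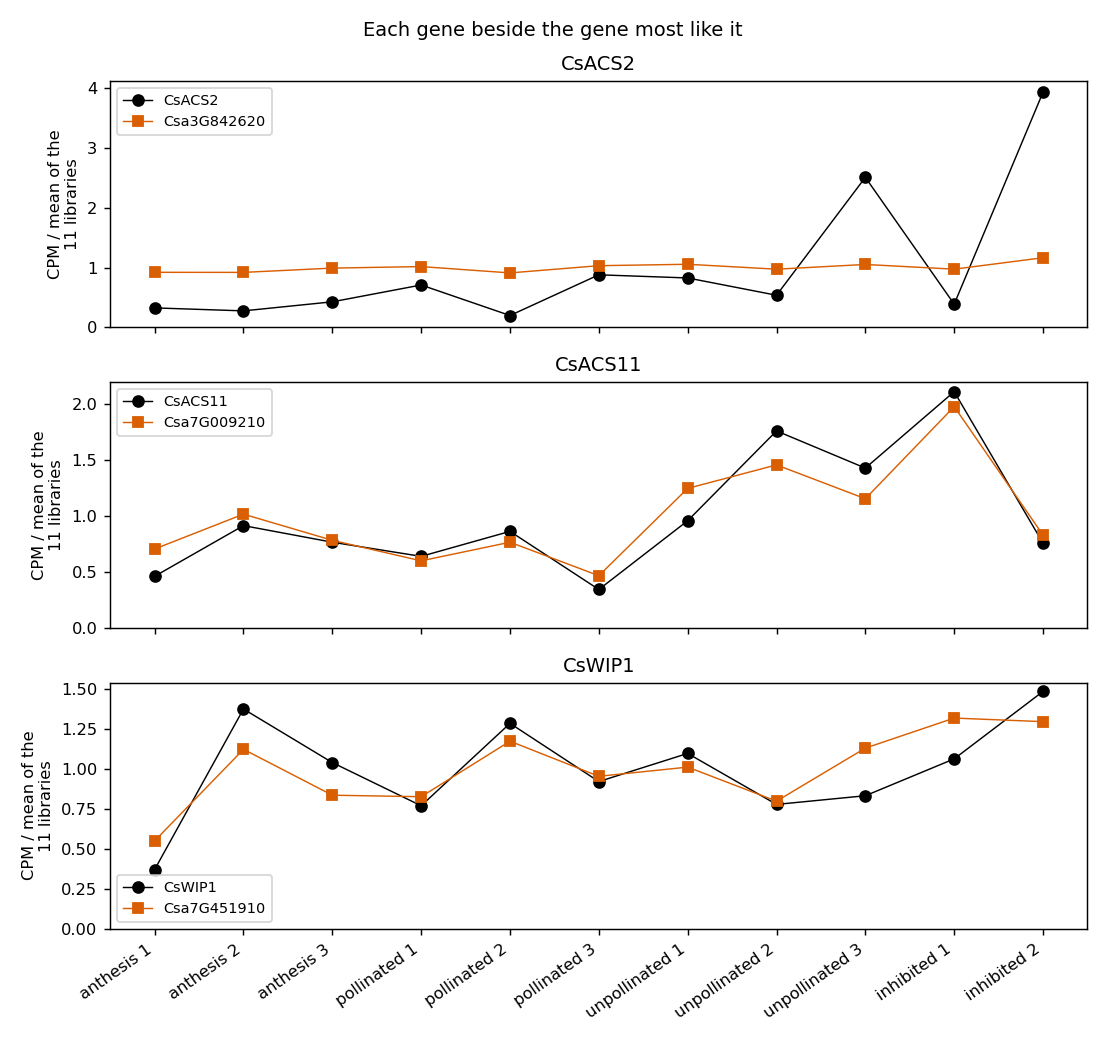
CPM divided by the gene's own mean over 11 libraries (vertical axes) in every library, for CsACS2, CsACS11 and CsWIP1 (black) and the gene most like each (orange). Lines only join points and show no time course. Csa7G009210 (1.46 to 6.18 CPM) rises and falls with CsACS11, while Csa3G842620 nearly keeps the order of CsACS2 at a small range (39.6 to 50.6 CPM).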

How the data were processed

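RNA-seq libraries of 11 single ovaries were analysed from deposited tables. Per the submitters' processing notes the tools were HTSeq 0.6.1p1, STAR 2.5.0a and DESeq2, the last with no version. Build, annotation and use of strand are likewise not given in the sources, so overlapping or near-identical genes may share reads. The deposited raw counts are whole reads per gene. Lines that name no gene (10.8 to 24.8% of a library) were left out. The authors' second deposited table holds a normalized signal, equal to the counts divided by 1 factor per library (largest relative difference 5.13e-10). In it CsACS2 ranged from 3.83 to 75.3, CsACS1 from 0 to 12.2, CsACS11 from 5.35 to 32.9 and CsWIP1 from 3.59 to 14.3.

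Genes were filtered with filterByExpr by group in edgeR 4.0.16 (R 4.3.3), which left 18679. TMM factors and quasi-likelihood dispersions were estimated from all 11 libraries, with 1 coefficient for each group, and p-values were adjusted over all genes tested. Standard errors are the log2 fold change divided by the square root of F. The pipeline was tested on simulated data. Replicate pairs were not duplicates (chi-square per gene 10.0 to 51.3 over genes with at least 20 reads). The highest value was that of the 2 inhibited libraries. Replicate numbers follow the order of the labels and pair nothing. Alternatives were DESeq2 1.42.0, its size factors in edgeR, no filter, only the groups compared, each library left out, the second index as a term, and the unassigned share as a covariate or its 4 raised libraries left out. The exact permutation and the fit within 1 index form were chosen after seeing the data. The genes were named by rule: the 4 members, and for each in the fit the 1 gene with the highest Pearson's r. The members and tests were chosen with earlier results of these data known. No gene list or marker list could be used, as 0 identifiers matched the 23999 reference genes.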

Additional observations from a re-analysis of the deposited data

How the results depend on the processing

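No paired analysis was possible because no label pairs libraries across groups. Over 327 values from alternative settings for CsACS2, CsACS11 and CsWIP1, 295 kept their sign and their side of the threshold, 8 became calls (all CsACS2) and 24 changed sign. None of the 24 was called in either setting, and where no value below shows a cause, the cause was not tested. Adjusted p ranged from 0.00248 to 0.946 for CsACS2, from 0.0678 to 0.996 for CsACS11 and from 0.451 to 0.997 for CsWIP1 over the 6 comparisons. The genes had 3.36 to 17.8 reads per library on average, and for CsACS2 the spread between ovaries was far above counting noise. For CsACS1, 6 ratios could not be computed, which were the pollinated comparisons without pollinated replicate 1 and without the 4 libraries of raised share, where pollinated ovaries were left with 0 reads. Other size factors and no filter changed no sign and made no call among the 3 tested genes.

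The values that crossed the threshold or changed sign are log2 fold changes, unless named as a p. For CsACS2, DESeq2 gave 1.91 for unpollinated against anthesis, 2.63 for inhibited against anthesis and an adjusted p of 0.0246 for any difference. A fit to only the groups compared called unpollinated against anthesis at 1.89. With the unassigned share as covariate, CsACS2 stood at -2.36 for pollinated against unpollinated, -1.12 for pollinated against anthesis, 1.24 for unpollinated against anthesis and -1.14 for inhibited against unpollinated, with an adjusted p of 0.00442 for any difference, and CsACS11 at 0.29 for pollinated against anthesis. Without the 4 libraries of raised share, pollinated against anthesis was -0.77 for CsACS2 and 0.26 for CsACS11, and inhibited against unpollinated was -0.79 for CsACS2. There CsWIP1 stood at 0.0084 for unpollinated against anthesis and -0.26 for inhibited against pollinated, and CsACS1 at -0.85 for unpollinated against anthesis and 3.61 for inhibited against unpollinated. With the second index as a term, CsACS11 was -0.12 for inhibited against unpollinated (-0.13 within the second form), and CsWIP1 was -0.13 for pollinated against unpollinated and 0.24 for unpollinated against anthesis. In the fit without the filter that term turned the sign of CsACS1 in 4 comparisons, at -0.81 for inhibited against pollinated, 1.91 for pollinated against unpollinated, -2.85 for inhibited against anthesis and -3.96 for unpollinated against anthesis.

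Leaving out 1 library at a time, CsACS2 ranged from -1.55 to -0.19 for pollinated against unpollinated, from 0.34 to 1.21 for pollinated against anthesis, from 0.97 to 2.27 for unpollinated against anthesis, from -0.61 to 2.70 for inhibited against pollinated, from -1.71 to 1.62 for inhibited against unpollinated and from 0.18 to 3.48 for inhibited against anthesis. Its adjusted p for any difference ranged from 0.0136 to 0.164, and that of CsACS11 from 0.0491 to 0.224. CsACS11 ranged from -0.57 to 0.085 for pollinated against anthesis, from -0.88 to 0.60 for inhibited against unpollinated and from 0.066 to 1.55 for inhibited against anthesis. CsWIP1 ranged from -0.077 to 0.31 for pollinated against unpollinated, from -0.27 to 0.50 for pollinated against anthesis and from -0.42 to 0.35 for unpollinated against anthesis. CsACS1 ranged from -3.85 to -1.57 for pollinated against unpollinated, from -2.99 to -1.43 for pollinated against anthesis, from 2.03 to 3.59 for inhibited against anthesis, from -0.85 to 1.88 for unpollinated against anthesis and from 1.16 to 3.45 for inhibited against unpollinated. By Spearman's rho in place of Pearson's r, the most alike gene of CsWIP1 became Csa1G561400 (rho 0.88), and those of CsACS2 and CsACS11 were the same genes.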
